A study of Arabidopsis thaliana with 6 samples.

Results

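STZ, ORA47 and PUB19 are nuclear genes of Arabidopsis thaliana whose products regulate responses to stress, and their transcripts were measured on 6 ATH1 expression arrays. Each was represented by 1 probe set that named no other gene: 261648_at for STZ (AT1G27730), 262211_at for ORA47 (AT1G74930) and 264217_at for PUB19 (AT1G60190). These 3 probe sets are members of an array of 22810. The genes were picked with their signals on all 6 arrays already known, so the differences between groups are given as descriptions with standard errors and without p-values. All seedlings spent 3 days in darkness and then 3 days in unbroken white light, on agar medium with 1.5% sucrose held at 23 °C. The untreated group was wild type Col-0, the second group was wild type Col-0 with 5 µM norflurazon in the medium, and the third was the gun1,gun5 double mutant with the same 5 µM dose. RNA came from whole seedlings with cotyledons, hypocotyl and primary root and without true leaves, and each group had 2 arrays. Norflurazon blocks carotenoid synthesis, so that chloroplasts bleach in the light. The gun mutants, named for uncoupled genomes, keep nuclear photosynthesis genes more active than the wild type does when plastids are damaged. The mutant alleles are not given in the sources used here, and untreated mutant seedlings were not analysed here, so a difference between genotypes cannot be told apart from one that exists without the herbicide.

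STZ, also called ZAT10, is a C2H2 zinc finger protein with an EAR repression motif, and its transcript is known to rise quickly under salt, drought, cold and strong light. ORA47 is a transcription factor of the DREB branch of the AP2/ERF family that activates genes of jasmonate synthesis, the pathway to a wound hormone. PUB19 is a U-box E3 ubiquitin ligase, an enzyme that marks proteins for degradation, and it dampens responses to abscisic acid (ABA) and drought together with its relative PUB18. Because whole seedlings were used, fewer cells that express a gene and less RNA per cell cannot be told apart in any value below.

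The arrays differed in ways that bear on these genes. The 6 tested heat shock genes had signals of 818.5 to 2739.2 on wild type norflurazon replicate 1 and of 18.6 to 356.6 on replicate 2. They had 392.2 to 3036.0 and 117.3 to 504.0 on mutant replicates 1 and 2, and at most 100.6 on the untreated arrays. By limma 2 of the 6, AT5G51440 and Fes1A, rose in the wild type on norflurazon (log2 differences 3.96 and 3.14), where 9.06% of all tested probe sets were called higher. Both calls were lost without untreated replicate 1 (3.68 and 2.96) or 2 (4.24 and 3.32). Leaving out another array could also raise the number of heat shock genes called. Signals are the deposited MAS5 values, an array intensity on a linear scale. As a sign of RNA quality, one pair of actin controls had a 3′ signal 4.65 and 4.82 times its 5′ signal on the untreated arrays and between 7.66 and 8.17 times on the 4 norflurazon arrays. A second actin pair ran from 1.65 to 3.63 with overlapping groups, and the first of 2 GAPDH pairs from 0.97 to 2.54; in both, replicate 1 was below replicate 2 in each group. The second GAPDH pair ran from 0.95 to 1.21. The 25S ribosomal RNA control had a signal of 2511.1 on wild type norflurazon replicate 1 and of 8.2 to 115.6 on the other 5 arrays. Of 17 listed markers of photosynthetic cells 8 were named and tested. Their signals were between 468.9 and 3798.8 on untreated arrays, 80.4 to 1690.5 in the treated wild type and 141.4 to 2649.4 in the mutant. By limma 8 of 8 were called lower in the wild type on norflurazon, where 18.9% of all tested probe sets were called (9.85% as lower). Between genotypes, where 2.95% were called (1.83% as higher), 7 of 8 were called higher in the mutant, and LHCB4.3 had a log2 difference of 0.59 (adjusted p = 0.162). That count of 7 was 2 without either mutant array, 4 without either untreated array or without the filter on dim probe sets, 5 without the intensity trend and 3 with the compared groups alone. The 3 tested root markers, among them PYK10 at 2821.2 to 3665.0 over all arrays, gave 0 calls in any comparison by limma (0 at an unadjusted p under 0.05). Over all 13648 tested probe sets, such p-values numbered 4648 (treated wild type), 2215 (between genotypes) and 4691 (treated mutant against untreated wild type). EXPA7 was called between genotypes when treated wild type replicate 1 was left out (1.48). A root marker was also called lower in the wild type on norflurazon in a fit with 1 array left out. Of 9 seed reserve markers 0 were named. Of the 3 tested reference genes 1, AT4G34270, was called higher on norflurazon by limma. It was called in the wild type (log2 difference 0.79, adjusted p = 0.0459), where 9.06% of all tested probe sets were called higher. It was also called in the mutant against untreated wild type, where 1167 of 13648 were called higher. That first call was lost on leaving out any 1 array but wild type norflurazon replicate 2, at values between 0.57 and 0.92, and the second on leaving out any 1 untreated or mutant array, at 0.93 to 1.22. The part of any of these in the levels of STZ, ORA47 and PUB19 was not tested.

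All 3 genes had their highest signal in untreated wild type seedlings, and they parted in the mutant. STZ was lower in the treated wild type and lower again in the mutant. ORA47 was low on all 4 norflurazon arrays. PUB19 was lowest in the treated wild type and stood between the other groups in the mutant. In each of the 3 comparisons the arrays of the groups did not overlap for any of the 3 genes. With 2 arrays a group this is common: 62.2% of the 13648 tested probe sets had no overlap between treated and untreated wild type (28.0% with the treated arrays lower), 40.8% between mutant and wild type on norflurazon (17.7% higher and 23.1% lower in the mutant), and 68.2% between the treated mutant and untreated wild type (33.6% lower in the mutant).

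**Figure D1:**
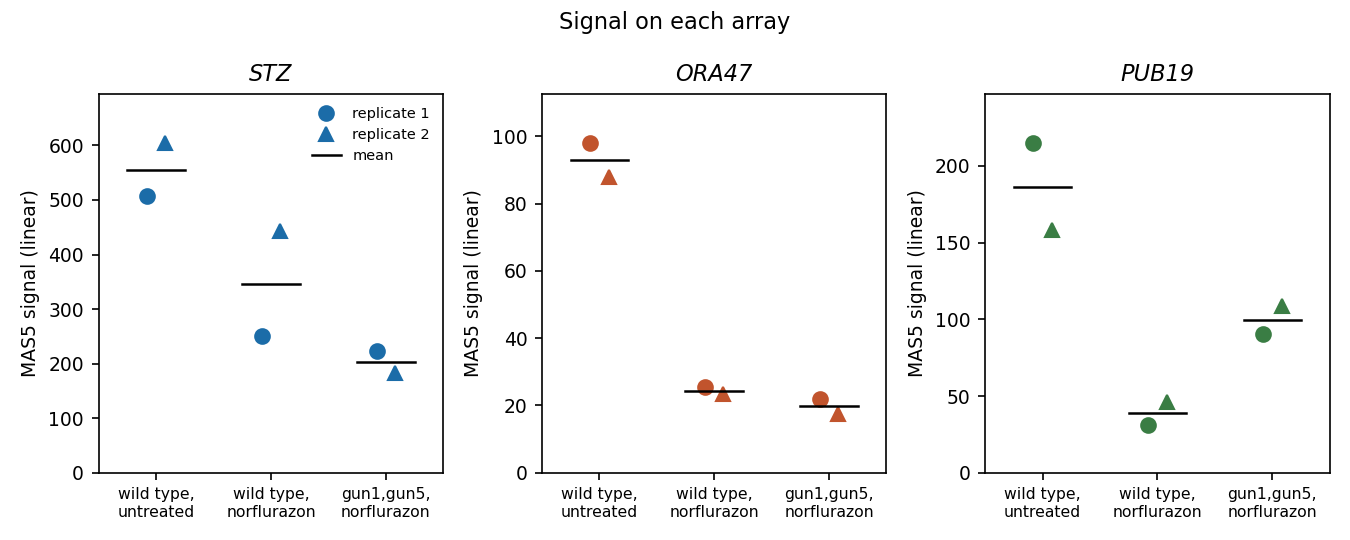
MAS5 signal (linear, axis from 0) of STZ, ORA47 and PUB19 on each of the 6 arrays, with circles for replicate 1, triangles for replicate 2 and a black line at the mean of each group. Mean STZ signals step down from 555.7 to 346.6 to 203.5, ORA47 drops from 92.9 to 24.4 and 19.7, and PUB19 goes from 186.6 to 38.6 and is 99.5 in the mutant.

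STZ, the zinc finger repressor, had signals of 506.9 and 604.5 on the untreated arrays, 250.2 and 442.9 in the treated wild type, and 223.5 and 183.5 in the treated mutant. The 2 treated wild type arrays lay far apart: replicate 1 was close to the mutant arrays and replicate 2 close to the lower untreated array. Group means were 555.7 ± 69.0, 346.6 ± 136 and 203.5 ± 28.3 (SD, n = 2). On the log2 scale STZ was at -0.73 ± 0.28 (SE) on norflurazon against untreated wild type, 60.1% of the untreated level. This step is smaller than the gap of 0.82 between the 2 treated wild type arrays. Pairs of single arrays gave between -1.27 and -0.19. In the mutant STZ was at -0.72 ± 0.28 (SE) against the treated wild type, with pairs of arrays between -1.27 and -0.16, which is again less than that gap. The ends of the order were further apart, at -1.45 ± 0.28 (SE) for the treated mutant against untreated wild type, 36.6% of the untreated level. The treated wild type array with the lower STZ signal was the one with heat shock signals of 818.5 to 2739.2 and a 25S ribosomal RNA signal of 2511.1, and the mutant arrays had the reverse order, with STZ higher where heat shock signals were higher.

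ORA47, the jasmonate-linked activator, had signals of 98 and 87.8 in untreated wild type seedlings. In the treated wild type they were 25.4 and 23.4, and in the mutant 22.0 and 17.4. Replicates were close in each group, with the higher array 1.12-fold above the lower in untreated seedlings, 1.09-fold in the treated wild type and 1.26-fold in the mutant. The means were 92.9 ± 7.21, 24.4 ± 1.41 and 19.7 ± 3.25 (SD, n = 2). The treated wild type stood 3.80-fold below the untreated one, at a log2 difference of -1.93 ± 0.24 (SE). Of the tested probe sets, 255 (1.87%) were lower than ORA47 in this comparison. The mutant differed from the treated wild type by -0.32 ± 0.24 (SE), less than the gap of 0.34 between the mutant arrays, so these neighbours in the order did not differ beyond their spread. Against untreated wild type the mutant was at -2.24 ± 0.24 (SE), or 21.1% of the level. ORA47 was the dimmest of the 3 probe sets: its 4 norflurazon signals lay below 27.6, the mean signal that the filter on dim probe sets required, and it passed that filter through its untreated arrays (mean on the log scale 35.4). With 16 added to each signal before taking logs the difference in the wild type was -1.43.

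PUB19, the ubiquitin ligase, gave 215.0 and 158.2 in untreated seedlings, 31.1 and 46.2 in the treated wild type, and 90.2 and 108.8 in the treated mutant. The lowest untreated array was above the highest mutant array, and the lowest mutant array was above the highest treated wild type array. Mean signals were 186.6 ± 40.2, 38.6 ± 10.7 and 99.5 ± 13.2 (SD, n = 2). In the wild type PUB19 was 4.86-fold lower on norflurazon, a log2 difference of -2.28 ± 0.26 (SE), and 166 tested probe sets (1.22%) were lower still. On norflurazon the mutant had 2.61-fold the wild type level, a log2 difference of 1.38 ± 0.26 (SE), and pairs of arrays gave between 0.96 and 1.81; 127 tested probe sets (0.931%) were higher. The mutant did not reach the untreated level and stood at 53.7% of it, a log2 difference of -0.90 ± 0.26 (SE). Replicate gaps were 0.44, 0.57 and 0.27 on the log2 scale in the untreated, treated wild type and mutant groups, smaller than each of these steps.

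**Figure D2:**
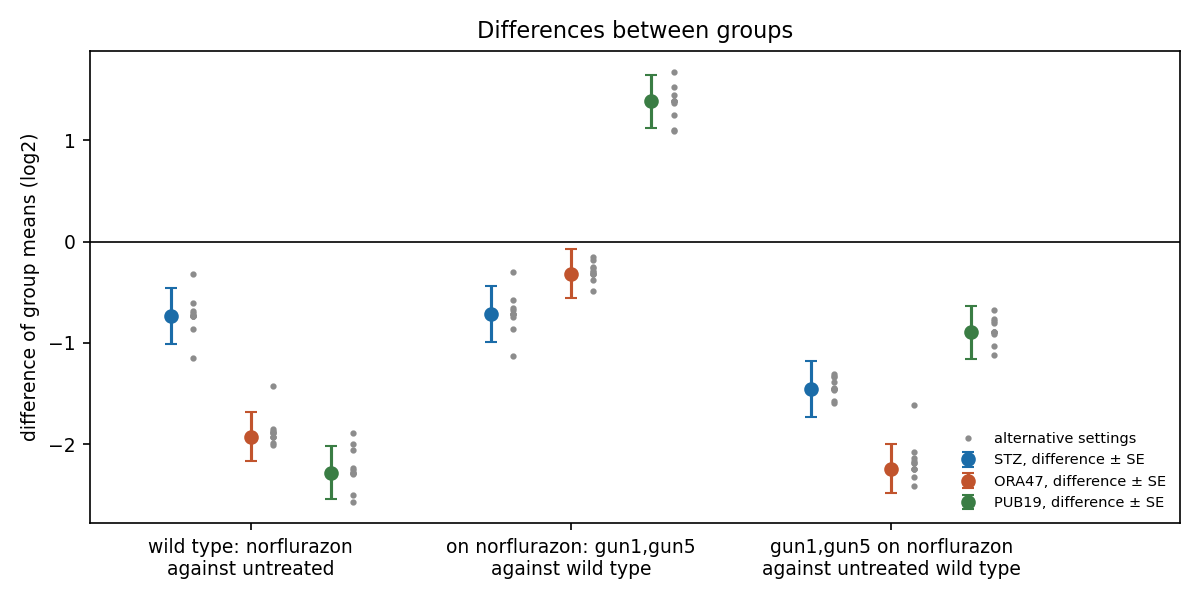
Log2 difference of group means (coloured points, bars are the standard error of the limma fit, n = 2 arrays a group) for STZ, ORA47 and PUB19 in the 3 comparisons, with grey points for the values under other pseudocounts, scalings, the replicate block and with 1 array left out. PUB19 is the gene above 0 in the mutant against the wild type on norflurazon, at 1.38, beside STZ at -0.72 and ORA47 at -0.32, and no grey point crosses 0.

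The limma fit over all tested probe sets, at an adjusted p under 0.05, placed 2 of the 3 genes among its calls in the wild type on norflurazon, ORA47 and PUB19, where 18.9% of all tested probe sets were called (9.85% as lower). Between mutant and wild type on norflurazon it placed 1, PUB19, against 2.95% (1.83% as higher). For the treated mutant against untreated wild type it placed 3, against 18.8% (10.3% as lower). These comparisons share arrays, and the genes were chosen with their values known, so nothing is read from these counts. The PUB19 call between genotypes was lost on leaving out either untreated array (log2 difference 1.38), treated wild type replicate 1 (1.1), or either mutant array (1.52 without replicate 1 and 1.25 without replicate 2). The call on STZ in the treated mutant was lost without untreated replicate 1 or 2 or mutant replicate 2, at -1.58, -1.32 and -1.31, and that on PUB19 without any one of the untreated and mutant arrays, at -1.12 to -0.68. STZ was also called when treated wild type replicate 2 was left out of the comparison with untreated seedlings (-1.15), and when replicate 1 was left out of that with the mutant (-1.13).

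How far the genes moved apart was followed within each array, where a common scaling factor cancels. The log2 signal of PUB19 minus that of STZ was -1.24 and -1.93 on the untreated arrays, -3.01 and -3.26 in the treated wild type, and -1.31 and -0.75 in the mutant. The treated wild type arrays were below all others in this quantity, and the untreated and mutant arrays overlapped. PUB19 minus ORA47 was 1.13 and 0.85 untreated, 0.29 and 0.98 in the treated wild type, and 2.03 and 2.64 in the mutant, so that the mutant arrays were above all others and the 2 wild type groups overlapped. For ORA47 minus STZ the untreated arrays, at -2.37 and -2.78, lay above the 4 norflurazon arrays, which ran from -4.24 to -3.30. These differences show unequal change of the probe sets, and their own size has no meaning as a ratio of transcripts. Across the 6 arrays the log2 signals of STZ and ORA47 correlated at r = 0.84, ORA47 and PUB19 at 0.68, and STZ and PUB19 at 0.39; the 6 points share 3 groups and are a description.

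The probe sets most like each gene were found by the Pearson correlation of log2 signals over the 6 arrays, among tested probe sets that named 1 gene and varied at least 0.5 times as much. These probe sets were picked on the same 6 arrays, so a pattern shared with the gene follows from the choice. For STZ these were AT5G43440 (r = 0.99), UBC16, which encodes a ubiquitin-conjugating enzyme, AT1G29520, AT3G62040 and AT3G56880, and 51 of 3108 candidates reached 0.95. AT5G43440 had 85.5 and 100.8 untreated, 40.5 and 78.6 in the treated wild type, and 41.0 and 34.5 in the mutant. Chosen for likeness to STZ, it has the same split of the treated wild type pair, and so does AT3G56880, with signals of 251.5 and 351.0 there.

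For ORA47 the list was ndhA, AT1G49500, AT1G49975, atpA and AT1G49470, with 115 of 1202 candidates at or above 0.95. Both ndhA, an NDH complex subunit, and atpA, an ATP synthase subunit, are encoded in the plastid genome. Signals of ndhA were 1414.9 and 1065.0 untreated, 144.4 and 126.0 in the treated wild type and 103.2 and 94.7 in the mutant. Those of atpA were 3380.0 and 2976.4, then 1039.9 and 1034.9, then 961.1 and 915.7. As for ORA47, for likeness to which both were chosen, their 4 norflurazon arrays lay together, far from the untreated ones.

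For PUB19 it was AT5G13770, AT1G71480, AT2G41120, AT4G13800 and PSBY, the last a photosystem II subunit, with 68 of 1304 candidates at or above 0.95. AT5G13770 had 457.8 and 384.2 untreated, 123.1 and 144.5 in the treated wild type, and 247.1 and 310.2 in the mutant (r = 0.99). Signals of PSBY were 3043.1 and 2798.0, then 639.4 and 691.0, then 1564.5 and 1734.7. In both, as in PUB19, the mutant arrays stood between the other groups. With 6 arrays in 3 groups any probe set with the same order and spacing of groups scores high.

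**Figure D3:**
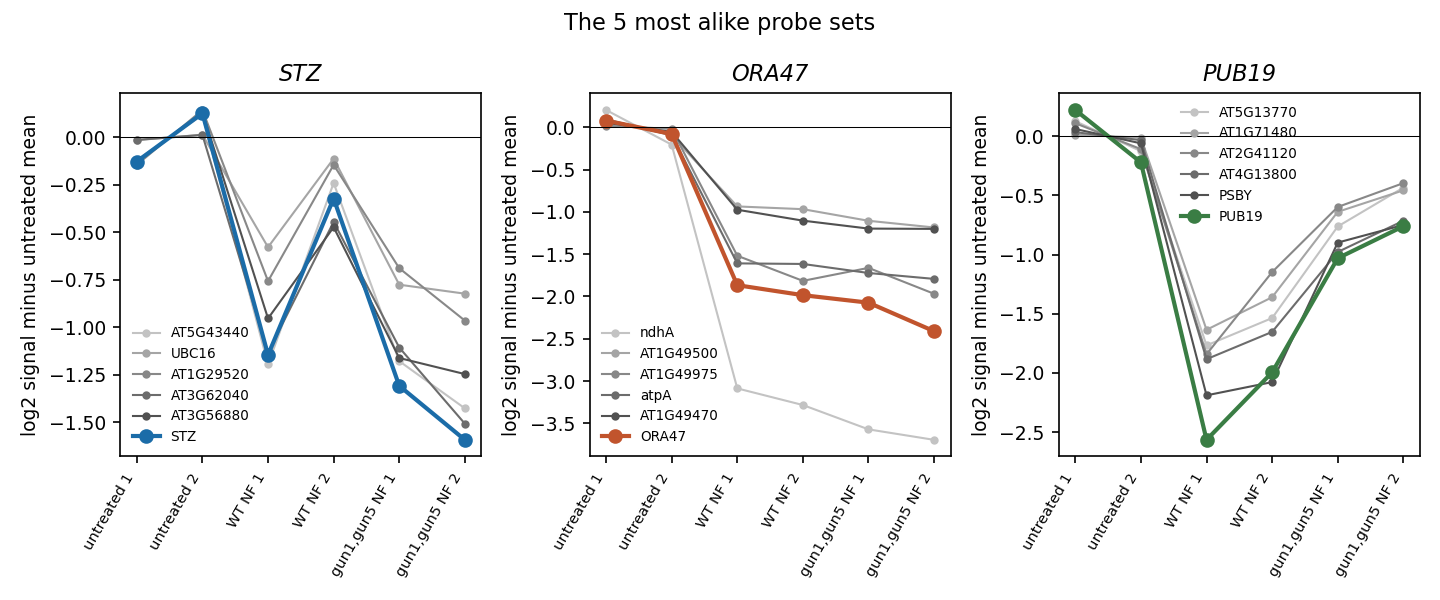
Log2 signal minus the mean of the untreated arrays, on each of the 6 arrays (WT NF, wild type on norflurazon; gun1,gun5 NF, mutant on norflurazon), for STZ, ORA47 and PUB19 (coloured) and the 5 probe sets most like each (grey); lines join the values of 1 probe set. The STZ set is split between the treated wild type arrays, the ORA47 set is low on all 4 norflurazon arrays, and the PUB19 set is lowest on the treated wild type arrays. Each set was chosen for this likeness on the same arrays.

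Other U-box genes, listed by hand or carrying the name, were set beside PUB19. Of 12 named here 7 were tested. In the wild type on norflurazon 18.9% of all tested probe sets were called, and 4648 of 13648 had an unadjusted p under 0.05. Of the 7 U-box genes 0 passed the limma test, and 0 had such an unadjusted p. Their log2 differences had a median of 0.04 and a range from -0.28 to 0.51, beside a median of 0.06 over all tested probe sets. The largest was PUB49, at 0.51 (adjusted p = 0.382). PUB22, a ligase of immune signalling, had the smallest p in this comparison, at 0.37 (adjusted p = 0.292). Between mutant and wild type on norflurazon 2.95% of all were called, and 2215 of 13648 had an unadjusted p under 0.05. Of the 7 U-box genes 0 passed, and 2 had such an unadjusted p. The median was -0.17, beside -0.04 over all. PUB23, which acts with PUB22, had 76.5 and 56.8 in the treated wild type and 40.3 and 20.1 in the mutant, a log2 difference of -1.21 (adjusted p = 0.123). Against untreated wild type, where 18.8% of all were called (10.3% as lower), 1 of 7 passed, PUB23 at -1.17 (adjusted p = 0.0478). That call was lost without either untreated array (-1.19 and -1.16) and without mutant replicate 2 (-0.67), and under other scalings, where its adjusted p was 0.0612 and 0.0627, and without a filter (adjusted p = 0.0891) or the intensity trend (adjusted p = 0.0507). PUB19 was below the range of these 7 genes in the wild type on norflurazon and above it between genotypes; it was chosen with these values known, and nothing is read from this.

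Relatives of ORA47 and STZ were few. Of 15 listed genes of ORA47's DREB subgroup 6 were named and 1, AT1G44830, was tested. Its signals were 67.1 and 81.0 untreated, 32.6 and 62.3 in the treated wild type and 37.8 and 15.6 in the mutant. It was called lower in the mutant against untreated wild type (log2 difference -1.60, adjusted p = 0.0447) and not in the wild type on norflurazon (-0.71, adjusted p = 0.31) or between genotypes (-0.89, adjusted p = 0.397). The call was lost without untreated replicate 1 or 2 (-1.74 and -1.46) or mutant replicate 2 (-0.96), with median scaling or quantile normalization (adjusted p = 0.0506 in both), and without a filter (adjusted p = 0.0864) or the intensity trend (adjusted p = 0.0505). Of 10 listed zinc finger genes like STZ 2 were named, and the tested one, AT2G28200, had a log2 difference of -0.22 on norflurazon (adjusted p = 0.548) and 0.01 between genotypes (adjusted p = 0.987).

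Of 24 other listed rapid stress transcription factors 2 were named and 1, WRKY6, was tested, at 0.19 in the wild type on norflurazon (adjusted p = 0.791), 0.15 between genotypes (adjusted p = 0.922) and 0.34 in the mutant against untreated wild type (adjusted p = 0.622). Genes with a WRKY name encode transcription factors of defence and stress. Of the 5 tested, 1 fell in the wild type and 0 rose, with a median of -0.10. Over all tested probe sets 9.85% were called lower there and 9.06% higher, and with 5 genes nothing is read from this count. The gene that fell was WRKY22, from 82.8 and 94.3 untreated to 34.0 and 33.2 in the treated wild type, a log2 difference of -1.39 (adjusted p = 0.0133). Its mutant signals were 33.6 and 20.2, a log2 difference of -0.37 from the treated wild type (adjusted p = 0.617). The call in the wild type was lost without untreated replicate 1 or 2, at -1.49 and -1.30. Of the 5 it was also the 1 called in the treated mutant against untreated wild type (-1.76, adjusted p = 0.00621), a call lost in the same way, at -1.85 and -1.67. In that comparison 10.3% of all tested probe sets were called lower.

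The jasmonate genes downstream of ORA47 were thinly covered. Of 15 listed genes of jasmonate synthesis OPCL1, a ligase that activates a jasmonate precursor, was the named and tested one, and of 20 genes of jasmonate response 0 were named. OPCL1 had 50.4 and 56.8 untreated and 54.7 and 47.4 in the treated wild type, groups that overlap, with a log2 difference of -0.07 (adjusted p = 0.856), while ORA47 was at -1.93 in the same comparison. In the mutant OPCL1 had 25.7 and 32.3, at -0.82 from the treated wild type (adjusted p = 0.129) and -0.89 from the untreated one (adjusted p = 0.0346). The last call was lost on leaving out any one of the untreated and mutant arrays, at -1.06 to -0.73. JRG21, the gene with a jasmonate name, was at -0.53 in the wild type (adjusted p = 0.424), -0.47 between genotypes (adjusted p = 0.686) and -1.01 in the mutant against untreated wild type (adjusted p = 0.142).

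Drought and ABA response genes, the setting in which PUB19 is known to act, moved in both directions. Of 26 listed 5 were named and 3 tested. By limma 1 was called lower and 1 higher in the wild type, where 9.85% and 9.06% of all tested probe sets were. Between genotypes 1 was called higher, against 1.83% of all. With 3 genes nothing is read from these counts. COR15B, a chloroplast protein gene of the cold response, went from 92.0 and 84.7 untreated to 31.1 and 19.5 in the treated wild type (log2 difference -1.84, adjusted p = 0.00298). It had 100.3 and 114.7 in the mutant, higher than the treated wild type by 2.12 (adjusted p = 0.00682), and its call between genotypes was lost without mutant replicate 2 (2.02). Like PUB19 it was lowest in the treated wild type, but both mutant signals were above the untreated ones (log2 difference 0.28, adjusted p = 0.482). DI21, a dehydration gene, rose in the wild type by 1.27 (adjusted p = 0.00934) and differed by 0.10 between genotypes (adjusted p = 0.9); without untreated replicate 1 or 2 its rise did not pass, at 1.32 and 1.22. COR47, a dehydrin gene, was at 0.04 and -0.15.

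Markers of oxidative and mitochondrial stress gave another picture than the 3 regulators, while genes of reactive oxygen scavenging moved in both directions. Of 5 tested markers of oxidative and mitochondrial stress 4 rose in the wild type on norflurazon and 0 fell, where 9.06% of all tested probe sets were called higher, at log2 differences of 3.56 to 5.66, while STZ, which such stress is known to induce, was at -0.73. They were AT2G41730, AT2G04050, AT5G51440 and AT2G21640. The list was drawn up with earlier results of these arrays known, so its direction is no independent evidence. Untreated signals were 2.1 and 6.4 for AT2G41730 and 18.0 and 22.4 for AT2G04050, below the 27.6 that the filter required as a mean. Both passed the filter through their norflurazon arrays, and the 5.66 of AT2G41730 rests on very dim untreated signals. The probe set of AT2G41730 is of a kind that can also match other transcripts, and AT5G51440 did not pass without untreated replicate 1 or 2 (3.68 and 4.24). AT5G51440 is also 1 of the 2 heat shock genes called above. Its signals were 1660.9 and 256.4 in the treated wild type, and leaving out 1 array gave between 2.61 and 5.31. Between genotypes 2.95% of all tested probe sets were called, and 2215 of 13648 had an unadjusted p under 0.05. Of the 5 markers 0 passed by limma (1 at an unadjusted p under 0.05). Of the 4 tested genes of reactive oxygen scavenging 2 rose and 2 fell in the wild type, where 9.85% of all tested probe sets were called lower. CCS, the copper chaperone of superoxide dismutase, rose by 2.37 (adjusted p = 0.000196), and TAPX, the thylakoid ascorbate peroxidase, fell, at -2.60 (adjusted p = 0.000321). SAPX, its stromal counterpart, rose by 0.86 and AT3G11630, a peroxiredoxin gene, fell, at -0.68; these 2 calls were lost without untreated replicate 1 or 2, at 0.78 and 0.94 for SAPX and -0.63 and -0.74 for AT3G11630. SAPX also missed the threshold without treated wild type replicate 1 (0.71), and AT3G11630 without replicate 2 (-0.62), without a filter (adjusted p = 0.0673) and without the intensity trend (adjusted p = 0.0568). Between genotypes 0 of the 4 passed by limma (2 at an unadjusted p under 0.05), with values of 0.27 to 0.87. TAPX, at 0.87, did pass when treated wild type replicate 2 was left out (1.11). Its signals were 303.2 and 252.8 untreated, 38.8 and 53.7 in the treated wild type and 84.7 and 82.6 in the mutant, the group order of PUB19. CCS and SAPX were lowest in untreated seedlings, and the mutant arrays of AT3G11630 overlapped the untreated ones.

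**Figure D4:**
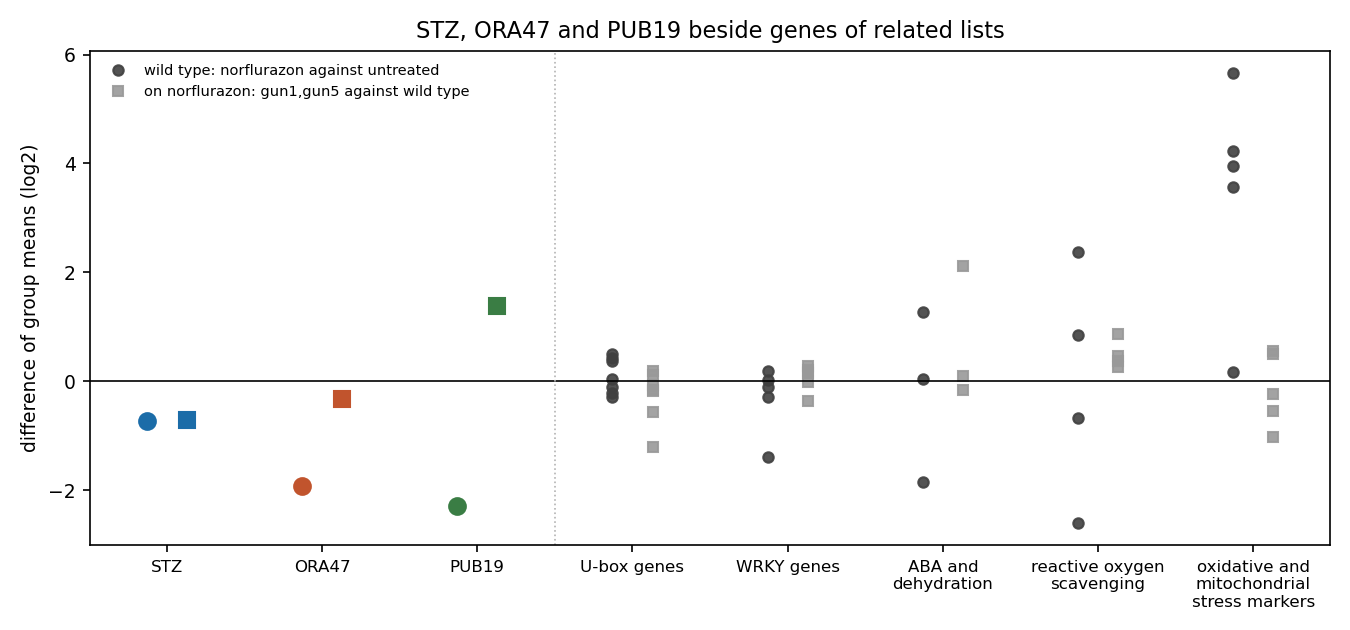
Log2 difference of group means for STZ, ORA47 and PUB19 (left of the dotted line) and for each tested gene of 5 related lists, with circles for norflurazon against untreated in the wild type and squares for gun1,gun5 against wild type on norflurazon. The 7 tested U-box genes run from -0.28 to 0.51 in the first comparison and from -1.21 to 0.19 in the second. PUB19, at -2.28 and 1.38, was chosen with these values known, so nothing is read from its place. Of the 5 stress markers, listed with earlier results known, 4 are at 3.56 or above in the first comparison.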

How the data were processed

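The deposited table holds array intensity values on a linear scale, 1 per probe set and array, which the submitters' processing notes credit to MAS5. Neither a version nor a scaling target is given in the sources used here. Trimmed means (2nd to 98th percentile) were 100.01 on every array, so the arrays had been scaled alike before deposit. No detection calls were used, so a low signal is known only as dim, and the number of arrays limits the precision.

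Signals were transformed to log2(signal + 0.05). Non-control probe sets with a mean log2 signal at or above the 40th percentile (a signal of 27.6) were tested, 13648 in all. The 6 arrays entered a single model of 3 group means (limma 3.58.1, R 4.3.3, eBayes with an intensity trend; 3 residual and 4.89 prior degrees of freedom). All p-values are two-sided and adjusted by the Benjamini-Hochberg method over all tested probe sets, threshold 0.05. The fit was tested on simulated arrays, and how many changes it recovered depended on how the spread was simulated; the simulation was altered once after a first version recovered fewer than required. The labels do not say whether arrays of a group came from separate plantings, so p-values measure only the spread between these samples, which may be technical.

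Gene names came from the platform's annotation and the RefSeq gene table of TAIR10.1: 13513 named 1 gene, 503 several, 8794 none, and 13436 were matched to a locus. The members and gene lists were chosen with earlier results of these data known. The joint U-box list, the neighbouring genes, the differences within arrays and both actin pairs were added after values were seen. Family lists were matched on symbols and synonyms; 0 C2H2 and 0 AP2/ERF genes were found that way. Named genes are the 3 members, the 5 probe sets most like each, and per list and comparison up to 4 genes past the threshold with the largest difference, or the one with the smallest p; others are named for context, after their values were seen. Alternatives were other pseudocounts, scalings, filters and variance models, the compared groups alone, a replicate block, and leaving out each array.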

Additional observations from a re-analysis of the deposited data

How the results depend on the processing

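No alternative turned the sign of STZ, ORA47 or PUB19 in any comparison. With a pseudocount of 16, which shrinks differences of dim probe sets, the wild type differences on norflurazon were -1.43 for ORA47 and -1.89 for PUB19, and that of ORA47 in the mutant against untreated wild type was -1.61. Leaving out 1 array at a time gave STZ between -1.15 and -0.32 on norflurazon in the wild type, -1.13 and -0.30 between genotypes, and -1.59 and -1.31 in the mutant against untreated wild type. ORA47 ran between -2.0 and -1.85, -0.49 and -0.15, and -2.41 and -2.07, and PUB19 between -2.57 and -2.0, 1.1 and 1.67, and -1.12 and -0.68. Also on leaving out 1 array, called probe sets in the wild type (2581) ran from 603 without untreated replicate 1 to 3110 without treated wild type replicate 2, those higher (1236) from 144 to 1510 and those lower (1345) from 459 to 1600. Between genotypes (402) they ran from 81 without mutant replicate 2 to 775 without treated wild type replicate 2, with 235 without a filter and 109 with the compared groups alone. Those higher (250) ran from 60 to 415, with 149 without a filter, 164 without the intensity trend and 73 with the compared groups alone. Those lower (152) ran from 21 to 360, with 86 without a filter, 36 with the compared groups alone and 237 with the replicate block. For the treated mutant against untreated wild type (2571) they ran from 388 without untreated replicate 1 to 4000 without treated wild type replicate 1, with 3968 for the compared groups alone. Those higher (1167) ran from 97 to 1983, with 1949 for the compared groups alone, and those lower (1404) from 291 to 2017. Median scaling turned this split to 1688 higher and 1158 lower, and that in the wild type to 1469 higher and 1271 lower; the wild type split also turned with the replicate block (1619 and 1576), the filter at the 60th percentile (1116 and 1087) and without treated wild type replicate 1 (1440 and 1384). The split in the treated mutant against untreated wild type also turned with the filter at the 60th percentile (1047 higher and 1017 lower). PUB19 was not called between genotypes without a filter, without the intensity trend or with the compared groups alone. In the mutant against untreated wild type it was not called without a filter, without the trend or with median scaling, which moved the median of all tested probe sets up by 0.11 there. ORA47 was not tested with a filter at the 60th percentile. The replicate numbers were not shown to pair the arrays: arrays of one number deviated together with r = 0.451 in the norflurazon groups, and with r = 0.0713 and 0.0799 against the untreated group. With the replicate block 591 probe sets were called between genotypes (3195 and 3190 in the other comparisons), the calls on the 3 genes did not change, and JRG21 passed in the mutant against untreated wild type (-1.01, adjusted p = 0.048). Signs turned on leaving out 1 array for some related genes that had not passed. AT2G28200 ran from -0.51 to 0.070 in the wild type and -0.27 to 0.30 between genotypes, WRKY6 from -0.46 to 0.85 and -0.51 to 0.80, and OPCL1 from -0.17 to 0.032 in the wild type. Between genotypes JRG21 ran from -1.11 to 0.17 and the heat shock gene AT1G53540 from -1.76 to 5.44. The cause of these changes was not tested.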

Other observations

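Genes beside STZ, ORA47 and PUB19 on the chromosome were taken from the TAIR10.1 gene table, 3 on each side, after the values of the 3 genes were seen. Of 18 neighbours 8 were named here, and 7 probe sets were tested. By limma 0 of 7 passed in the wild type on norflurazon (1 at an unadjusted p under 0.05), with log2 differences between -0.27 and 0.55. Between genotypes 0 of 7 passed (1 at an unadjusted p under 0.05), between -0.29 and 0.80, and in the treated mutant against untreated wild type 0 of 7 (0 at an unadjusted p under 0.05). Over all tested probe sets 18.9%, 2.95% and 18.8% were called in these 3 comparisons. An unadjusted p under 0.05 was reached by 4648, 2215 and 4691 of all 13648. ALDH10A8, an aldehyde dehydrogenase gene next to ORA47, had 428.1 and 450.3 untreated, 514.2 and 392.1 in the treated wild type and 466.6 and 506.9 in the mutant. AT1G60230, near PUB19, had 54.1 and 61.1, then 37.6 and 60.3, then 81.3 and 84.9, a log2 difference of 0.80 between genotypes (adjusted p = 0.17).

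Of the 5 named relatives of ORA47 below the filter on dim probe sets, AT1G19210 had 26.3 and 36.0 untreated, 17.8 and 13.2 in the treated wild type, and 13.7 and 16.2 in the mutant, and AT1G22810 had 23.7 and 16.6, then 7.2 and 8.6, then 10.7 and 15.1. In these and in AT1G33760, at most 1.3 on every array, the 4 norflurazon arrays were below the untreated ones, 3 of 5 in all. How many other dim probe sets share this order was not counted, so nothing is read from 3 of 5. Among tested probe sets 28.0% were lower without overlap in the treated wild type and 33.6% in the treated mutant, each against untreated wild type. AT1G77640, between 21.8 and 33.0, had overlapping groups. In AT4G31060, between 19.6 and 23.7 on all 6 arrays, the 2 wild type groups overlapped and both mutant arrays, at 19.6, lay below them. These signals are dim, they were picked out after their values were seen, and they were not tested.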
